A study of Mus musculus with 18 samples.

Results

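N4-acetylcytidine (ac4C) was mapped in the hippocampus of 3 wild-type (WT) mice aged 6 months, the littermate controls of a study of 5×FAD mice. The mRNAs described here were those with at least 1 ac4C peak in 2 or more of the 3 WT mice. These were 4437 mRNAs, of 6273 with a peak in any WT mouse and 7598 with a peak in any of the 6 mice of the series. RNA of each mouse was fragmented and precipitated with an anti-ac4C antibody (IP), with a library of the unprecipitated RNA (input) and a library from control IgG beside it, so that the WT arm held 9 of the 18 libraries. The labels gave the genotype as WT and named no treatment, and 5×FAD animals were not compared. Nothing in the labels said whether 1 hippocampus or pooled tissue made a sample.

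ac4C is an acetylated form of cytidine that is written on RNA by the acetyltransferase NAT10. In ribosomal and transfer RNA its positions are fixed and depend on helper RNAs or proteins such as THUMPD1. On mRNA it has been linked to stability and translation, and in neurons it has been reported on transcripts for synaptic proteins. An antibody against ac4C gives a peak over a stretch of RNA and not the modified base.

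The value of a peak was its fold enrichment, the ratio of IP over the input of the same mouse, and no IgG value was used. The WT tables listed 8375, 7904 and 7434 peaks in mice 1, 2 and 3, on 4589, 4436 and 4268 mRNAs. Between 90.9% and 92.0% of these peaks lay on the 4437 member mRNAs. The tables also carry a false discovery rate column in percent from the peak caller, whose definition neither the labels nor the methods state. The paper counted peaks as significant at a false discovery rate adjusted p under 0.05. How that value relates to the column is not stated. The column's median over member peaks was 50.3%, 60.2% and 67.6% in mice 1, 2 and 3, with 0, 0 and 2 peaks under 5%. Read at face value, nearly all listed peaks would thus miss a limit of 5%. The column was not used as a filter, and recurrence between mice was. Libraries were not given as counts, so the read depth behind a peak is unknown. All of these values are ratios to input, and whether a gene without a listed peak carried ac4C could not be read from them. Some neuronal, oligodendrocyte and astrocyte markers were among the members, as given below. Of 6 erythrocyte genes 0 were, but their median mRNA length was 634.5 bases, and of all protein-coding genes in the bin of shortest mRNAs 2.86% were members.

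A set of 4 coding exons is shown first, because they carried strong peaks that were listed with the same start and end in all 3 mice and were short enough to print. They are the 4 such exons of up to 300 bases with the highest geometric mean fold enrichment, with at most 1 per gene. All sequences are from RefSeq on GRCm38, 5′ to 3′ on the mRNA strand with T for U, and each is followed by the nearest coding exon of the same mRNA that had no peak in a WT mouse and was no longer than 300 bases. Capitals mark the longest run of the unit CNN, a cytosine followed by any 2 bases, which has been described around ac4C.
Myrf exon 21 (peak): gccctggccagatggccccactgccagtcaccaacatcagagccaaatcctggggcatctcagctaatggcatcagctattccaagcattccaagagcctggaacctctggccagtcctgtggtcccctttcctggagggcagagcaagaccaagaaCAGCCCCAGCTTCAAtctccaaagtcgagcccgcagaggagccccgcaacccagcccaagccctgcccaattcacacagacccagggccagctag
Myrf exon 20 (no peak): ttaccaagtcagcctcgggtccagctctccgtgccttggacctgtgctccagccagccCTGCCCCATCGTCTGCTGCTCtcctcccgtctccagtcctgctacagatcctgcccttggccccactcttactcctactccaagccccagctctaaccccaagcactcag
Tenm4 exon 7 (peak): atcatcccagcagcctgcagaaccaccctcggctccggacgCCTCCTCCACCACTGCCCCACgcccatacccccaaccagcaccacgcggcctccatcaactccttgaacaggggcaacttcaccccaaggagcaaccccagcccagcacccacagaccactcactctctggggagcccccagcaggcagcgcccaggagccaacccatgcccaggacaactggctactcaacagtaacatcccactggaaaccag
Tenm4 exon 10 (no peak): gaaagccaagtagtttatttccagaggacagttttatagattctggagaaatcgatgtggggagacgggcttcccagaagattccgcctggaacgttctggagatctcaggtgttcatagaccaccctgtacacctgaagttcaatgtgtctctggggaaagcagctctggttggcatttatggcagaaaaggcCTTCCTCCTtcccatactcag
Mettl8 exon 7 (peak): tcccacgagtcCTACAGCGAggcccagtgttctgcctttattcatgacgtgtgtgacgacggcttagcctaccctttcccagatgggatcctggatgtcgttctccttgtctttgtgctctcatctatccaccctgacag
Mettl8 exon 6 (no peak): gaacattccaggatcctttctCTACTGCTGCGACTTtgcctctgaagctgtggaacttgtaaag
Foxj2 exon 6 (peak): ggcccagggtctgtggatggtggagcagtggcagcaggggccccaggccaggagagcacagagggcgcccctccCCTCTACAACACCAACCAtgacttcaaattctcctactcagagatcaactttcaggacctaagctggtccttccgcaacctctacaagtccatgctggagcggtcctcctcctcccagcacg
Foxj2 exon 5 (no peak): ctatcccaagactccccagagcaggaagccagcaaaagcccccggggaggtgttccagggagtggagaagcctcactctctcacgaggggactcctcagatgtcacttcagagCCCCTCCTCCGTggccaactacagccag
Exon 21 of Myrf, the myelin regulatory factor of oligodendrocytes, is at chr19:10214059-10214310 on the minus strand. Its peak had fold enrichments of 59.1, 50.5 and 43.2 in mice 1, 2 and 3. Exon 7 of Tenm4, a teneurin adhesion protein, is at chr7:96694770-96695025 on the plus strand and had values of 56.1, 45.2 and 49.3. Both belonged to the 10 mRNAs with the highest summed values among those in all 3 mice. Exon 7 of Mettl8, an RNA methyltransferase, is at chr2:70973253-70973392 on the minus strand and had values of 47.1, 49.0 and 38.3. Exon 6 of Foxj2, a forkhead transcription factor, is at chr6:122833681-122833876 on the plus strand and had values of 57.4, 45.2 and 26.4. The single exons did not separate by letters. Cytosine made up 44.9% of the Tenm4 peak exon and 22.3% of exon 10, its neighbour without a peak (chr7:96735685-96735899), but 36.9% of the Myrf peak exon and 44.6% of its neighbour exon 20 (chr19:10214760-10214927). In Mettl8 the longest CNN run was 3 units in the peak exon and 5 units in exon 6 without a peak (chr2:70976074-70976137). In Foxj2 it was 6 units in the peak exon and 4 in exon 5 without a peak (chr6:122833161-122833301), while their cytosine content was 34.7% and 34.8%.

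Most members were found in every WT mouse. Of the 6273 mRNAs with any WT peak, 2583 (41.2%) had one in all 3 mice, 1854 (29.6%) in exactly 2 and 1836 (29.3%) in 1 mouse and were left out. The 1854 divided into 731 shared by mice 1 and 2, 571 by mice 1 and 3 and 552 by mice 2 and 3. mRNAs found more often also had higher values. The median of the mean highest peak was 5.90 for mRNAs in 1 mouse, 7.32 for those in 2 and 9.76 for those in all 3. The share with more than 1 peak per mouse on average was 8.44%, 31.7% and 74.2% in the same order. Members were 4324 of the 21000 protein-coding genes of the RefSeq annotation, or 20.6%, with 113 members not matched to it by gene ID. That total was not limited to genes expressed in hippocampus.

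The positions recurred as well as the mRNAs. Peaks of the 3 mice merged into 2557 regions found in all 3, 4634 found in 2 and 6754 found in 1. Of the 7191 regions in at least 2 mice, 5977 (83.1%) had the same start and end in each mouse. This exactness reflects how intervals were listed, since 70.0% of member peaks equalled 1 exon of the reference transcript and 95.5% touched one, so a listed interval was mostly an exon and not the width of the signal. At least 1 region shared by 2 or more mice was present on 4106 members (92.5%). For 331 members the peaks of different mice lay in different places.

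The typical member carried 1 or 2 modest peaks. The median summed fold enrichment per mRNA was 12.1, 11.7 and 11.0 in mice 1, 2 and 3, or 11.6 ± 0.588 (SD, n = 3). The median highest peak per mRNA was 8.75, 8.69 and 8.11, or 8.52 ± 0.352 (SD, n = 3). More than 1 peak was listed on 45.5%, 43.1% and 42.3% of members present in a mouse. At least 5 peaks were listed on 255, 222 and 201 mRNAs. The sum passed 100 on 57, 38 and 32 mRNAs. Across the 2583 mRNAs in all 3 mice, the sums of 2 mice had Spearman's rho between 0.643 and 0.655, as a description over mRNAs that share a library. The highest mouse exceeded the lowest by a median of 1.87 times for the sum and 1.53 times for the highest peak. For 280 of the 2583 the sums of the mice differed by more than 4 times.

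Among members in all 3 mice, the highest summed values belonged to genes of varied function. These genes were chosen by their sums in these same mice, so their place above the typical member is not a separate result. Eif4g3, a scaffold protein of translation initiation, had sums of 157, 212 and 171 in mice 1, 2 and 3 from 9, 9 and 11 peaks. Lta4h, leukotriene A4 hydrolase, had sums of 152, 155 and 229, nearly all from a single exon. Cacna1a, the pore of the P/Q-type calcium channel at synapses, had 171, 171 and 172. These 3 mRNAs lay far above the typical member in every mouse. Myrf had 174, 175 and 148.6, and Tenm4 had 162, 145 and 133. Hipk2, a nuclear kinase, had 152, 110 and 128, and Tnrc18 had 144, 118 and 139. Both lay above the typical member in every mouse. Med15, a subunit of the Mediator complex, had 186, 84.6 and 185, with mouse 2 lower.

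**Figure D1:**
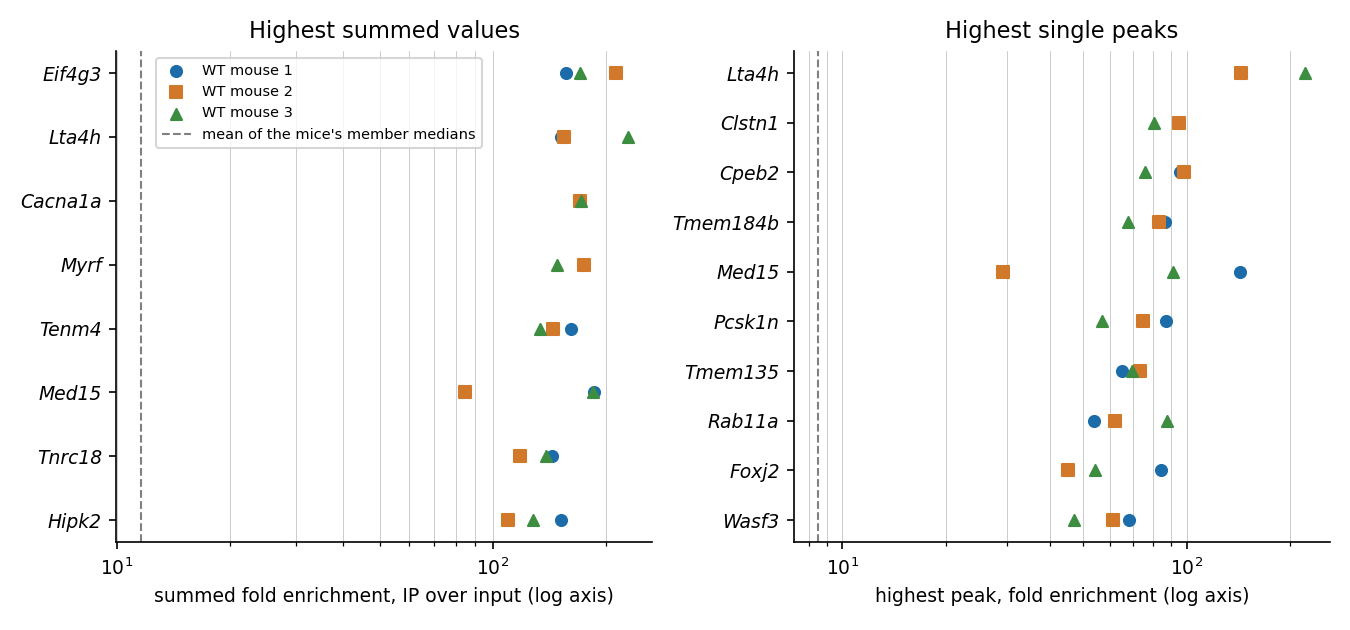
Values of members with a peak in all 3 mice, on log axes. Left, 8 of the 10 with the highest summed fold enrichment, and right, the 10 with the highest single peak. Each WT mouse has 1 symbol, and a dashed line marks the mean of the 3 member medians (11.6 and 8.52). All 18 rows, chosen for high values in these same mice, lie to the right of the line in every mouse. Med15 shows the widest spread among the sums plotted.

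The 10 mRNAs with the highest single peaks were taken from those in all 3 mice, by geometric mean. Of these, 6 had that peak on the exon with the start codon. The exon with the start codon of Lta4h (chr10:93453396-93453668, plus strand) had fold enrichments of 144, 144 and 221 in mice 1, 2 and 3. That of Clstn1, which encodes the synaptic adhesion protein calsyntenin-1, had 94.8, 95.2 and 80.4 (chr4:149586468-149586772). That of Cpeb2, a binding protein of polyadenylation elements that acts on translation, had 95.6, 98.5 and 75.8 (chr5:43233463-43235088). In all 3 the interval was identical in the 3 mice. Tmem184b, a membrane protein, had 86.6, 83.3 and 67.5 on its exon with the start codon (chr15:79378464-79378713). Tmem135 and Rab11a, a GTPase of recycling endosomes, also peaked there, with 64.9, 73.2 and 69.5 and with 53.6, 62.0 and 87.5. Each of these last 2 had 1 peak per mouse, so that the whole value came from that exon. The others of the 10 highest peaks lay elsewhere. Med15 and Foxj2 peaked in coding exons, with 143, 29.2 and 91.3 and with 84.2, 45.2 and 54.2, and for both genes the exon was not the same in every mouse. For Med15 the value of mouse 2 came from another exon than those of mice 1 and 3. Wasf3, an actin regulator of the WAVE family, had 67.9, 61.2 and 46.9 in its 5′ UTR (chr5:146384985-146385338). Pcsk1n, which encodes the precursor of an inhibitor of prohormone convertase, had 86.8, 74.8 and 56.7 on its exon with the stop codon. Strong coding peaks found in all 3 mice were also on Arhgap17 (66.4, 54.9 and 43.3) and on Cacna1a (56.7, 56.5 and 40.4, chr8:84565948-84566393). The strongest 3′ UTR region in all 3 mice, on the transcription factor Nfix, was lower, at 31.5, 27.3 and 21.2.

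Other mRNAs reached high sums through many low peaks. Fn1, fibronectin of the extracellular matrix, had 17, 20 and 11 peaks with sums of 105, 144 and 48.0, while its highest peak was 12.7, 20.2 and 6.99. Cit, citron kinase, had 15, 18 and 8 peaks and a highest peak of 15.5, 15.9 and 13.6. Ubr4, a large ubiquitin ligase with 106 exons, had 16, 5 and 16 peaks. For Fn1 and Cit mouse 3 held the fewest peaks, and for Ubr4 mouse 2 did. All 3 lay above the typical mRNA by the sum, while with the mean over peaks their log2 differences were -0.38, -0.060 and -0.24. Over all 4437 members, Spearman's rho with the peak number was 0.747 for the sum and 0.397 for the highest peak, as a description.

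The largest values of all occurred in exactly 2 mice. A coding exon of Mphosph8, a subunit of the HUSH silencing complex, had 397 and 507 in mice 2 and 3, and no peak of this mRNA was listed in mouse 1. An interval of 61 bases on Zfp791, a zinc finger gene, had 217 and 512 in mice 2 and 3 and none in mouse 1 (chr8:85112210-85112270). Tusc3, a subunit of the oligosaccharyltransferase, had 309 in mouse 1 over 66 bases, and in mouse 3 only a peak of 4.54 elsewhere. The strong interval was at most 147 bases long in all 3 genes, and the part of its length in the value was not tested. Papd5, a non-canonical poly(A) polymerase, had sums of 100 and 87.4, and Fam19a5, a secreted brain protein, 87.5 and 87.6, both in mice 2 and 3. Among mRNAs in all 3 mice, the widest spread was on Smpd3, a neutral sphingomyelinase, with 133, 8.31 and 6.44. Its peak of 125 in the 5′ UTR was listed in mouse 1 alone. Vstm2l followed with 106, 5.96 and 108, Kif21a, a kinesin, with 5.58, 59.8 and 3.97, Cdk11b with 114, 6.97 and 64.4, and Nfic with 57.4, 71.0 and 5.02.

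To separate mRNAs that lay above or below the typical mRNA by more than the spread between mice, log2(sum + 1) was centred on the median mRNA of each mouse and tested against 0 with limma over the 2583 mRNAs in all 3 mice. At a Benjamini-Hochberg adjusted p under 0.05, 509 mRNAs (19.7%) lay above and 450 (17.4%) below. Those above had a median log2 difference of 1.41 and a mean of 4.10 peaks. Those below had a median log2 difference of -1.08 and a mean of 1.06 peaks, so that most of them carried the 1 peak that made them members. mRNA length moved with the call, with a median of 5112 bases above, 3358 below and 4063 for the rest, and its part in the result was not tested. The 5 smallest p above belonged to Myrf (log2 difference 3.44 ± 0.177 SE), Cacna1a (3.49 ± 0.186 SE), Tenm4 (3.26 ± 0.177 SE), Eif4g3 and Tmem184b, each with a limma adjusted p of 0.0078. The smallest p below included those of ribosomal and trafficking genes and of Ptcd1. Rpl28, a protein of the large ribosomal subunit, had sums of 3.91, 3.85 and 2.90 (log2 difference -1.76 ± 0.176 SE). Rps26, of the small subunit, had 4.11, 4.26 and 3.08. Vps18, of the endosomal tethering complexes, had 4.03, 3.06 and 3.01. Their limma adjusted p lay between 0.0083 and 0.0089. With 2 mice in place of 3 the counts fell to between 0 and 161 above and between 0 and 1 below, and without mouse 3 both were 0, although 788 and 702 mRNAs then had an unadjusted p under 0.05. The low end of the scale is also bounded by the caller, which listed no peak with a score under 40, a score being 10 times the negative log10 of the caller's p.

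Peaks lay mainly in coding exons, with exons that hold the start codon next. By the tables' own classes, coding exons held 52.8%, 51.9% and 51.1% of member peaks in mice 1, 2 and 3. Exons with the start codon held 20.9% ± 1.76 and exons with the stop codon 16.6% ± 1.01 (SD, n = 3). The 5′ UTR held 8.76% ± 0.269 and the 3′ UTR 1.79% ± 0.258. Counting only the strongest peak of each mRNA, the start codon share was 26.7%, 26.8% and 31.2%, and the coding share fell to between 36.8% and 39.5%. Peaks also differed in height by class. The median fold enrichment was 8.05 ± 0.196 at the start codon, 7.94 ± 0.114 in the 5′ UTR, 7.60 ± 0.369 at the stop codon, 7.05 ± 0.163 in the 3′ UTR and 6.70 ± 0.232 in coding exons (SD, n = 3). In every mouse the start codon median exceeded the coding median, by between 1.31 and 1.41. With 3 mice an exact two-sided sign test cannot go below p = 0.25, so these orders are given as values. Within mRNAs that carried both kinds of peak, the highest peak of each class was compared. In mouse 1, coding exons held 4017 peaks on 2108 mRNAs, start codon exons 1497 on 1453 and 5′ UTR exons 671 on 623. The highest coding peak was thus often drawn from more peaks, which raises it. These ratios can therefore not be set against the class medians above. The highest start codon peak exceeded the highest coding peak on 53.7% of 602, 54.6% of 582 and 60.7% of 618 mRNAs in mice 1, 2 and 3, with median log2 ratios of 0.09, 0.14 and 0.26. Stop codon peaks were more often the lower of the pair, above the highest coding peak on 41.7%, 44.4% and 45.0% of mRNAs. The highest 5′ UTR peak exceeded the highest coding peak on 46.5%, 47.7% and 46.9% of mRNAs, with median log2 ratios of -0.060, -0.024 and -0.072. Of all members, 2474 (55.8%) had peaks in more than 1 class, 718 in coding exons alone and 539 at the start codon alone.

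**Figure D2:**
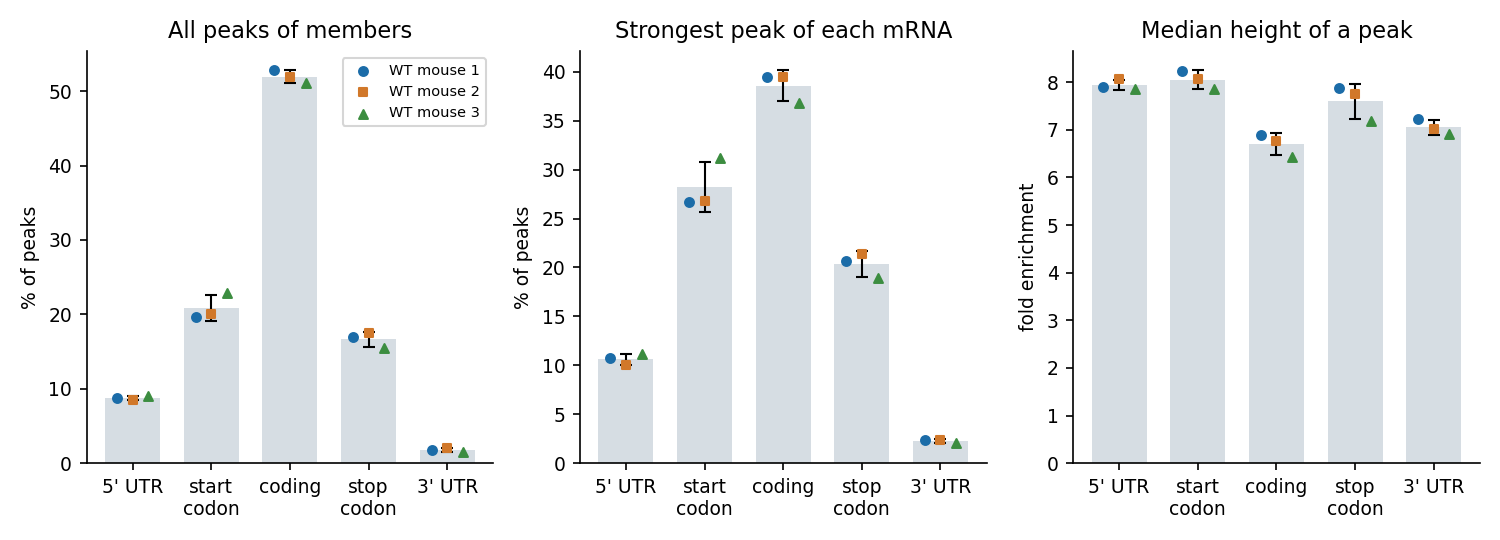
Share of member peaks by position class (left), share of the strongest peak of each mRNA (middle) and median fold enrichment of a peak (right), with 1 symbol per WT mouse, bars at the mean and error bars of 1 SD (n = 3). Coding exons hold 51.9% of peaks on average and start codon exons 20.9%, while the median peak is lowest in coding exons at 6.70.

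Exons differ in number and length between these classes, so the share of exons with a peak was also counted over all exons of the members' RefSeq transcripts. Of the 4175 exons with a start codon, 31.8% ± 1.33 had a peak, against 7.99% ± 0.542 of the 52603 coding exons (SD, n = 3). All these exons belong to mRNAs that were chosen for having a peak. An mRNA gives 1 start codon exon at most but often many coding exons, so coding exons come mainly from mRNAs with many exons. The part of this choice in the differences between classes, also at equal length, was not tested. The share was 21.1% ± 0.880 for 5′ UTR exons and 19.4% ± 2.64 for exons with the stop codon. Longer exons carried peaks more often in each of these classes, except that the 5′ UTR share was level between 200 to under 500 bases (31.5%) and 500 or more (30.5%). Among coding exons the share was 3.82% ± 0.325 under 100 bases, 9.93% ± 1.10 from 150 to under 200 bases and 32.1% ± 0.590 at 500 or more. Start codon exons lay above coding exons of the same length class in all 5 classes, with 14.4% ± 1.36 under 100 bases and 41.5% ± 0.0621 at 500 or more. Stop codon exons did not. At 500 or more bases, 20.7% ± 2.93 of them had a peak, below coding exons of that length. The annotation gives most stop codon exons a long 3′ UTR in the same exon, and the tables do not say where in the exon the signal was.

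**Figure D3:**
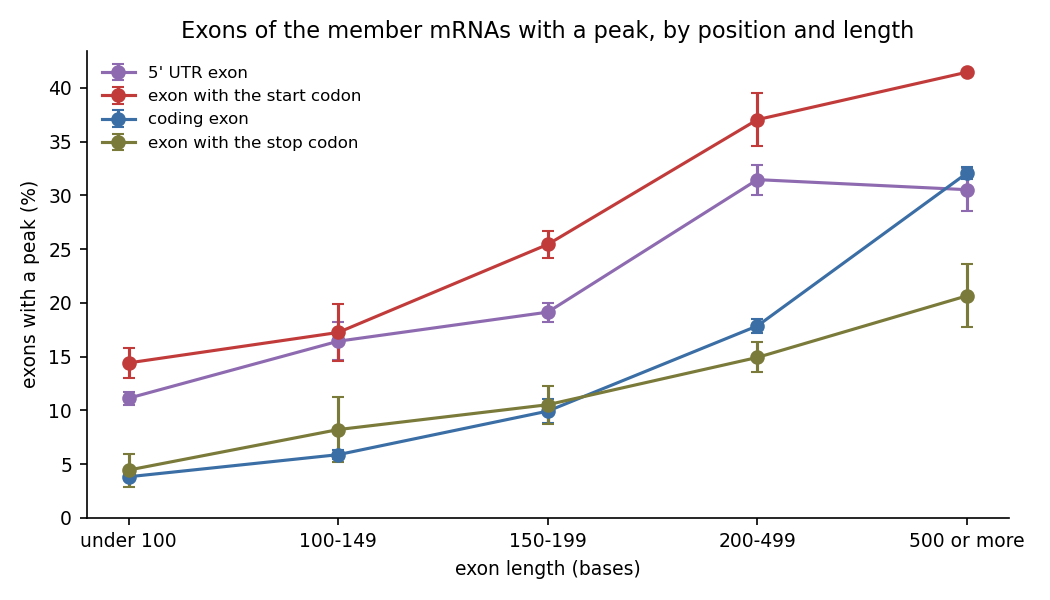
Share of exons of the member mRNAs that had a peak, by exon length in bases and by position in the mRNA, as means of 3 WT mice with error bars of 1 SD. All 4 lines rise from the shortest class to the class from 200 to under 500 bases, and start codon exons lie highest at every length, between 14.4% and 41.5%.

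Coding exons with a peak were richer in cytosine than coding exons of the same mRNA that had none in a WT mouse. Over 2166, 2137 and 2017 mRNAs in mice 1, 2 and 3, cytosine made up 28.2%, 28.1% and 28.02% of peak exons and 25.7%, 25.5% and 25.6% of the others. The difference was 2.54, 2.57 and 2.47 percentage points, and it was positive on 69.2%, 70.0% and 68.3% of mRNAs. Guanine, the pairing partner, did not move with it. Its difference was -0.104 ± 0.146 points (SD, n = 3), and it was positive in 1 mouse and negative in 2. The difference lay between -2.28 and -1.95 points for uracil and between -0.457 and -0.237 points for adenine, both lower in peak exons. The cytosine content also rose with the height of the peak. In mouse 1 it was 27.0%, 28.2%, 29.0% and 31.3% over 4 equal bins from the lowest to the highest fold enrichment, and in mice 2 and 3 the highest bin had 31.1% and 30.6%. Median exon length rose over the same bins, in mouse 1 from 157 to 189 bases. Within classes of equal exon length, across mRNAs, peak exons still held more cytosine in all 3 mice, by 0.503 to 1.18 points under 100 bases and by 4.61 to 5.41 points at 500 or more.

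**Figure D4:**
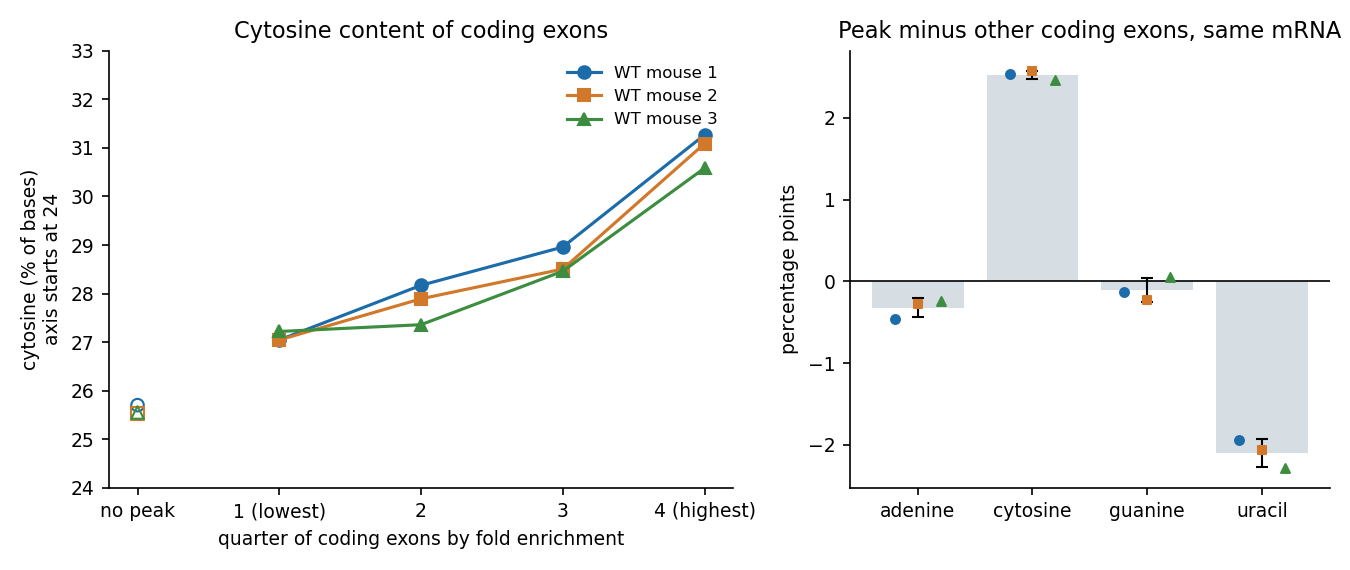
Left, cytosine content of coding exons in 4 equal bins of fold enrichment, with open symbols for coding exons without a peak in the same mRNAs; the axis starts at 24%. Right, base content of peak exons minus other coding exons of the same mRNA in percentage points, with 1 symbol per WT mouse, bars at the mean and error bars of 1 SD (n = 3). Cytosine is higher by 2.52 points on average and uracil lower.

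Runs of the CNN unit were denser in peak exons, although most exons had one. Each peak exon was set against the nearest coding exon of its mRNA without a peak, both cut from their centres to the shorter length, in 4368, 4122 and 3806 pairs. The motif CNNCNNCNN on the mRNA strand was present in 83.4%, 82.5% and 81.6% of peak exons and in 79.2%, 77.3% and 77.9% of the others. Its starts numbered 3.86 ± 0.0233 per 100 bases in peak exons and 2.95 ± 0.0370 in the others (SD, n = 3). With 4 units, CNNCNNCNNCNN was present in 55.3% ± 0.845 and 46.7% ± 0.728. The shorter motif lies inside the longer one, and both grow with cytosine content, so these counts are not separate from the base composition above.

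Which genes became members followed mRNA length closely. Protein-coding mRNAs were split into 5 equal bins of length. Of the shortest bin (174 to 1178 bases), 2.86% were members, and the share rose over the others to 11.0%, 19.0%, 27.6% and 42.5% of the longest, from 4403 bases. By exon number the share rose from 6.36% to 40.4%. Gene groups below are therefore given with the median mRNA length of the whole list in bases, beside 2467 bases for all protein-coding genes and 3884 for members. Counts above or below the typical mRNA cover only members in all 3 mice. Over all mRNAs tested, 19.7% lay above and 17.4% below.

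Genes for synapses and ion channels were members more often than the 20.6% of all genes, but unevenly within families. Of the longest bin of mRNAs, from 4403 bases, 42.5% were members. Glutamate receptors (39.1%), GABA receptors and partners (31.25%) and sodium channel pores (25%) lay below that share. Calcium and potassium channels and the lists of both sides of the synapse lay above it. All 8 listed pores of voltage-gated calcium channels, a chosen list, were members in all 3 mice (median length 9470 bases). Of these, 4 lay above the typical mRNA. Besides Cacna1a, these were Cacna1i, of T-type channels, with sums of 98.7, 51.6 and 77.7, Cacna1c, of L-type channels, with 21.5, 55.6 and 34.8, and Cacna1g, also T-type, with 24.8, 47.2 and 33.7. With the mean over peaks in place of the sum, the log2 difference of Cacna1c changed sign to -0.22. Of the 4 listed pores of neuronal sodium channels, of similar length (9322 bases), 1 was a member. That was Scn8a, with 26.4, 18.5 and 26.7. Scn1a had a single peak of 5.43 in mouse 1. Among 23 potassium and HCN channels 15 were members (5971 bases), 10 of them in all 3 mice. Of these 10, 4 lay above and 1 below. Hcn2, a pacemaker channel, led with 50.9, 61.7 and 85.4.

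Ionotropic and metabotropic glutamate receptors showed the same unevenness. Of 23, 9 were members (4895 bases), 7 of them in all 3 mice. Grik5, a kainate receptor subunit, led. It had 101, 80.9 and 62.5, much of it in a 5′ UTR exon (54.6, 63.8 and 49.3), and Grik4, of the same family, had 42.4, 27.1 and 26.8. Both lay above the typical mRNA, as did Grin2d, an NMDA receptor subunit, with 48.2, 54.9 and 21.3. None of the 4 AMPA receptor genes was a member, with Gria1 at 2.97 in mouse 2 and Gria4 at 4.35 in mouse 1 as single peaks. Grin1, the obligatory NMDA receptor subunit, had 1 peak of 17.7 in mouse 3 and none listed in mice 1 and 2, and so was not a member. Of 16 GABA receptor genes and partners 5 were members (4729.5 bases). Gabbr2, of the metabotropic receptor, had 97.2, 95.9 and 62.4 from 9, 7 and 2 peaks.

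Scaffolds on both sides of the synapse were mostly members. On the postsynaptic side, 16 of 19 were members (median length 4956 bases), 11 of them in all 3 mice, with 6 above the typical mRNA and 0 below. Dlgap4, of the postsynaptic density, had 118, 107 and 122, Shank2 had 51.6, 43.5 and 55.2, and Shank3 had 51.6, 59.8 and 33.1. All 3 lay above the typical mRNA. On the presynaptic side, 20 of 29 were members (5259 bases), 17 of them in all 3 mice, with 5 above and 0 below. Pclo, of the active zone, had 105, 34.0 and 47.0. Syn1, a synaptic vesicle phosphoprotein, had a single peak on its exon with the stop codon, of 64.4, 41.0 and 34.7. Dnajc6, which encodes auxilin of vesicle uncoating, had 18.6, 4.18 and 7.96, and did not pass the threshold against the typical mRNA (log2 difference -0.66 ± 0.393 SE, limma adjusted p = 0.245). Of 10 microtubule-associated proteins 9 were members (6895 bases), 7 of them in all 3 mice, with 1 above the typical mRNA and 1 below. Mapt, which encodes tau, had 55.0, 39.0 and 9.48, and Map2, of dendrites, had 11.6, 26.8 and 6.76. Neither passed the threshold against the typical mRNA in limma, at adjusted p = 0.188 and 0.786.

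Nuclear regulators formed the other large block. Of 40 chromatin remodellers and histone methyltransferases 33 were members, 25 in all 3 mice (8134 bases), with 13 above the typical mRNA and 2 below. Ep400, a remodeller subunit, had 127, 114 and 85.4, and Smarca4, the ATPase of the BAF complex, had 119, 78.9 and 105. Crebbp, an acetyltransferase of histones, had 80.4, 92.7 and 105. All 3 stood well above the typical member in each mouse. Of 23 genes of Mediator and RNA polymerase II 10 were members (3513 bases), 8 of them in all 3 mice. Of these 8, 5 lay above and 0 below. They were led by Med15 and by Med13l with 95.6, 74.7 and 54.8. The log2 difference of Med13l was -0.19 with the mean over peaks. Of 17 transcription factors of hippocampal neurons 13 were members (3977 bases). Prox1, which marks dentate granule cells, had 64.3, 60.6 and 60.1, nearly the same in the 3 mice. Etv1 had 54.8, 71.2 and 36.3, and Emx2 had 64.7, 30.7 and 20.6. All 3 lay above the typical mRNA.

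Immediate early genes, which neuronal activity induces, were often members but seldom in every mouse. Of 15, 12 were members (3072 bases), yet 2 in all 3 mice, Fosb and Nr4a1. Nr4a3 had 122 and 48.3 in mice 1 and 3, Egr1 had 27.7 and 24.4 in mice 1 and 2, Egr3 had 30.7 and 19.5 in mice 1 and 3, and Egr4 had 36.6 and 28.1 in mice 2 and 3. The mouse without a listed peak was thus not the same from gene to gene. Nr4a1 had 21.6, 10.6 and 22.0. Of the list only Fosb and Nr4a1 entered the limma fit, where neither passed the threshold (adjusted p = 0.0666 and 0.552).

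Ribosomal protein and respiratory chain mRNAs, which are short, were members less often than the 20.6% of all genes, and translation initiation factors more often. In the shortest bin of all mRNAs 2.86% were members, below the shares of the ribosomal and respiratory lists. Of 77 cytosolic ribosomal proteins 4 were members (5.19%, median length 734 bases), and the 3 in all 3 mice, Rplp0, Rps26 and Rpl28, all lay below the typical mRNA. Of 74 nuclear-encoded subunits of the respiratory chain 6 were members (8.11%, 752 bases). Cox5a, of cytochrome c oxidase, had 61.7 and 47.5 in mice 1 and 3, and Ndufv3, of complex I, had 35.9, 23.9 and 21.7, above the typical mRNA. Of 38 translation initiation factors 15 were members (39.5%, 2237 bases), 10 of them in all 3 mice. Of these 10, 1 lay above, Eif4g3, and 4 below. Eif5b had 9.73, 31.6 and 72.2, highest in mouse 3, and Eif4b had 11.9, 12.6 and 12.3, close to the typical member.

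**Figure D5:**
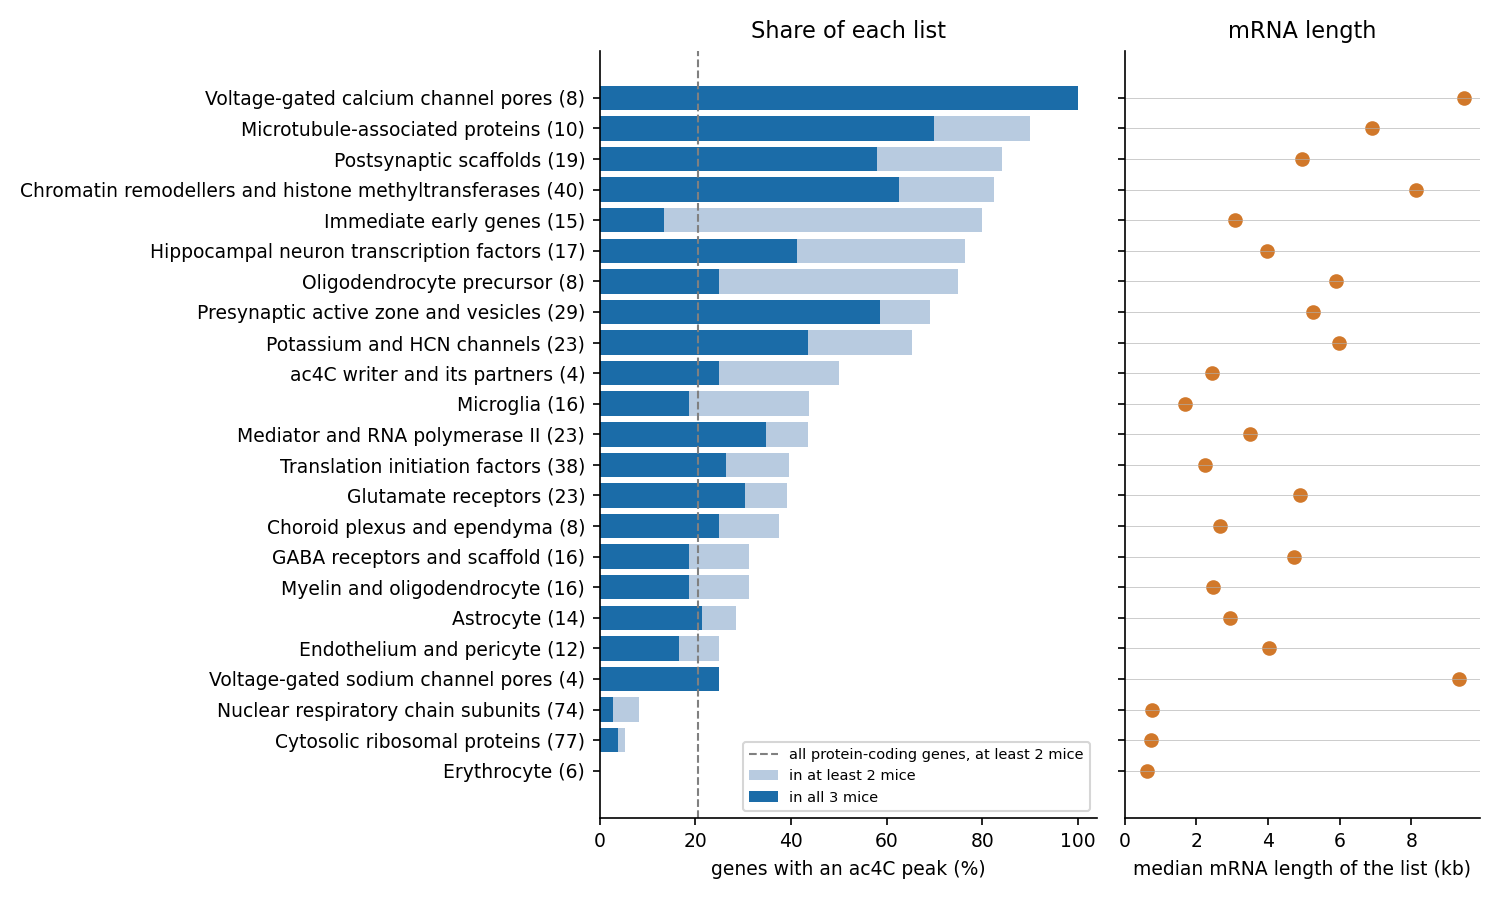
Left, share of the genes of each list with an ac4C peak in at least 2 WT mice (light) and in all 3 (dark), with list sizes in brackets and a dashed line at the 20.6% of all protein-coding genes. Right, median mRNA length of each list in kilobases. Calcium channel pores lead with 8 of 8, ribosomal proteins and respiratory chain subunits lie under the line, and these 2 lists are also among the shortest.

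Of the 4 genes of the acetylation machinery listed, 2 were members (2434.5 bases). Nat10 and Thumpd1 had no listed peak in a WT mouse. Fbl, the fibrillarin methyltransferase, had 5.82 and 3.96 in mice 2 and 3, and Nop58, its partner in small nucleolar ribonucleoproteins, had 15.5, 4.91 and 10.9, which did not pass the threshold against the typical mRNA (limma adjusted p = 0.267).

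Some markers of glia and vessels were among the members, and whether their values differed from those of neuronal genes was not tested. Beside the 20.6% of all genes, the shares were 25% for endothelium and pericytes, 28.6% for astrocytes and 31.25% for myelin and oligodendrocytes. They were 37.5% for choroid plexus and ependyma, 43.75% for microglia and 75% for oligodendrocyte precursors. Olig1, Olig2, Mag and Mobp of oligodendrocytes had a peak in 1 mouse only and were not members. Of 16 genes of myelin and oligodendrocytes 5 were members (2470.5 bases), with Myrf the highest and the only 1 above the typical mRNA. Mbp, myelin basic protein, had 6.15, 16.9 and 5.08, and Aspa, aspartoacylase, had 18.4, 21.5 and 17.7. Of 8 genes of oligodendrocyte precursors 6 were members (5894 bases), with Bcas1 at 6.66, 8.06 and 7.25, below the typical mRNA. Of 14 astrocyte genes 4 were members (2956 bases), while Gfap, Aldh1l1 and Sox9 had peaks in 1 mouse only and were not. Slc1a2, the main glutamate transporter of astrocytes, had 51.2, 55.9 and 31.3, above the typical mRNA, whereas Slc1a3 had 8.33, 9.39 and 8.49. Of 16 microglial genes 7 were members (1683 bases). P2ry12, a purinergic receptor, had 6.61, 6.97 and 4.07, below the typical mRNA. Of 12 endothelial and pericyte genes 3 were members (4041 bases), led by Flt1 with 30.7, 34.8 and 15.4. Of 8 genes of choroid plexus and ependyma 3 were members (2669 bases). Kl had 5.21, 8.22 and 5.96, below the typical mRNA. Ttr, transthyretin, which marks choroid plexus, had 19.7, 6.92 and 42.3, highest in mouse 3 and lowest in mouse 2. RNA from bulk hippocampus does not tell fewer cells of a type from less RNA per cell, and a ratio to input does not measure either.

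The tables' own GO and Pathway columns annotated 4133 of the 4437 members. The cellular components with most members were cytoplasm with 1911, membrane with 1822 and nucleus with 1644. Among processes, regulation of transcription had 494 and transport 455. Across all members 58.2% were in all 3 mice and the median of the mean sum was 11.6. Regulation of transcription had 65.2% in all 3 mice and a median of 13.6, while transport had 53.6% and 11.2. Among the 254 terms with at least 40 members, the median ran from 7.47 to 20.1. The highest was terminal bouton (46 members, 20.1), followed by SH3 domain binding (59 members, 18.9), actin filament binding (55 members, 17.4), calmodulin binding (70 members, 17.0) and transcription factor complex (85 members, 16.9). Axon guidance was also among the 10 highest, with 51 members and 16.0. The 10 highest also held the ErbB signaling pathway (16.2) and negative regulation of apoptotic process (16.2), and no term was tested for enrichment. The lowest were G-protein coupled receptor activity (52 members, 7.47), mitochondrial inner membrane (66 members, 8.04), protein N-terminus binding (44 members, 8.74) and lipid metabolic process (94 members, 8.85). In the pathway column, metabolic pathways had 226 members and a median of 9.24. Of its 109 members in all 3 mice, 11 lay above the typical mRNA (10.1%) and 30 below (27.5%), beside 19.7% and 17.4% of all mRNAs tested. For terminal bouton these were 10 and 1 of 30. Both terms were taken from the ends of the ranking by the same sums, so these counts follow from it and are not a separate result. Across the 254 terms, which share genes, the median sum and the median mRNA length had a Spearman's rho of 0.531, as a description.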

How the data were processed

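Hippocampal RNA of 3 WT mice gave 9 libraries (IP, input and IgG). Per the labels and the methods, the authors fragmented the RNA, precipitated it, depleted rRNA, made directional libraries, trimmed reads (cutadapt 1.9.3), aligned them to mm10 (HISAT2 2.04) and called peaks per mouse against its own input (MACS 1.4.2, no shift model, no local lambda). IgG served as a control, and the paper describes leaving out peaks that overlapped IgG peaks and subtracting IgG from the enrichment. No IgG value was used here. Whether the peaks as given had been filtered against IgG is not stated. The deposited tables give for each peak its fold enrichment (a ratio of IP over input, with no scaling between mice described), a score (10 times the negative log10 of the caller's p) and the caller's false discovery rate in percent. The read depth is not in the tables, so no counting error can be given.

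Peaks were taken as deposited. Fold enrichment was summed, and its highest value taken, per mRNA and mouse. Members had a peak in at least 2 mice. The mRNAs in all 3 mice were tested with limma 3.58.1 (R 4.3.3) on log2(sum + 1) minus the mouse's median, with Benjamini-Hochberg adjustment over all 2583; the fit was tested on simulated data. All other comparisons are values over mice with SD. Exons came from 1 RefSeq transcript per gene of GRCm38, the one with the longest coding sequence, and base composition from coding exons of at least 30 bases. Table coordinates, which start at 0, are printed from 1. RefSeq matched 4324 members by gene ID. Exons on chromosome 18 were not considered for the printed sequences.

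Genes named were the 10 members in all 3 mice with the highest sum and the 10 with the highest peak, 5 with most peaks, 5 with the highest sum in exactly 2 mice, 5 with the lowest sum, 5 with the widest spread, 5 in each direction with the smallest p, up to 6 members of each list, any member of a list of up to 5 genes, and Nat10, Grin1, Map2 and Dnajc6. Genes of lists that are not members, the strongest regions per class, the ranked terms and, within the lists, other members were chosen after their values were seen. Members and the 24 gene lists were chosen with earlier results of these data known. Alternatives were each mouse left out, a score of at least 50, equal numbers of top peaks (7434), a fold enrichment of at least 4, a peak in all 3 mice, other summaries and scalings for limma, a 50% overlap for regions, and GC content or a longer motif. IP and input enter as 1 ratio. The labels number the samples as replicates and do not say how tissue was divided, so p-values measure the spread between these samples. The tables of 5×FAD mice gave only the count of mRNAs in the series. Some genes that the rule would name are not reported here.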

Additional observations from a re-analysis of the deposited data

How the results depend on the processing

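No paired analysis was possible because only WT samples were used and the IP and input of a mouse enter as 1 ratio. Leaving out each mouse in turn gave 3135 to 3314 members, 3988 to 4317 recurrent regions, median sums of 12.6 (12.635 to 12.645), 47.8% to 48.4% of members with more than 1 peak, 53.6% to 54.0% of peaks in coding exons and 18.8% to 20.5% at the start codon, a start codon minus coding difference of 1.31 to 1.54, a cytosine difference of 2.53 to 2.69 points, and limma counts of 0 to 161 in all, 0 to 161 above and 0 to 1 below. At an unadjusted p under 0.05, limma had 598 below without mouse 2, and 788 above and 702 below without mouse 3. Each of these fits has fewer mice. With a peak in all 3 mice required, there were 2583 members and 335 terms, a median sum of 14.4, a median highest peak of 9.29, 54.8% with more than 1 peak, 56.1% of peaks in coding exons, 18.7% at the start codon, a start codon difference of 1.48 and a cytosine difference of 2.79 points. With a score of at least 50 the median highest peak was 8.97 and the cytosine difference 2.66; with equal numbers of top peaks these differences were 2.59 for cytosine and 1.42 for the start codon; with a fold enrichment of at least 4 they were 2.66 and 1.29. GC content in place of cytosine gave 2.42 points, and 4 motif units a difference of 8.60 points. None of the shifts in this paragraph changed a direction.

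With all 4437 members entered at 0 where no peak was listed, limma called 0 in all, 0 above and 0 below (802 and 142 at an unadjusted p under 0.05). With the mean over peaks in place of the sum it called 268 below. Of the 509 mRNAs above, 250 were still called above while 101 changed sign. Of the 450 mRNAs below, 157 were still called below while 46 changed sign. With the highest peak 328 of those above were still called and 19 changed sign, and of those below 238 and 0. Under the mean, the log2 differences of Cacna1c (-0.22), Cit (-0.060), Fn1 (-0.38), Med12l (-0.25), Med13l (-0.19), Med14 (-0.29), Ppfia1 (-0.42), Ubr4 (-0.24), Gabra2 (0.68) and Ndufb10 (0.46) had the opposite sign to that of the sum. Under the highest peak so did that of Ppfia1 (-0.19). The mean does not grow with peak number, but Gabra2 and Ndufb10 had 1 peak in every mouse. For them the sum and the mean are the same number, and only the median mRNA they were set against changed. The causes of all these shifts were not tested. An unlisted peak is not a measured 0, and depth is unknown.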
